A study of Bos taurus with 8 samples.

Results

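Oxidative phosphorylation complexes I to V were followed in bovine blastocysts through the genes whose platform symbol marks them as parts of these complexes. The symbols taken were those beginning with NDUFA, NDUFB, NDUFC, NDUFS or NDUFV and a number, SDHA to SDHD, symbols beginning with UQCR, CYC1, COX4 to COX8 with their endings, and symbols beginning with ATP5. This rule matched 81 of the 15229 gene symbols on the platform, and 78 of the 81 genes had a detected probe. The detected genes comprised 36 of complex I, 4 of complex II, 8 of complex III, 14 of complex IV and 16 of complex V. The rule itself uses no measured value. COX4NB, now named EMC8, and ATP5S, now DMAC2L, match the rule without being subunits, and NDUFA4, counted by its symbol in complex I, is now placed with complex IV. Their log2 ratios of insulin over control for both doses were small, at 0.07, −0.04 and −0.08. When a gene had several probes, the one with the highest mean intensity stood for it.

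The embryos came from oocytes of slaughterhouse ovaries that were matured, fertilised and cultured in vitro. Insulin was added to the maturation medium, and the series asks how it bears on the resulting blastocysts. The INS0.1 group had bovine insulin at 0.1 µg/ml, the INS10 group had it at 10 µg/ml, and the control group had no insulin added. All 8 arrays set insulin RNA in one dye against control RNA in the other, with 4 arrays per dose and insulin in Cy5 on replicates 1 and 2 and in Cy3 on replicates 3 and 4. The labels state neither breed nor embryo day nor the number of embryos in an extract. They give 4 control replicates and do not say which was on which array, so the comparisons of the 2 doses with the control may share control samples.

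The complexes sit in the inner mitochondrial membrane. Complexes I and II pass electrons from NADH and succinate to ubiquinone, complex III passes them on to cytochrome c, and complex IV hands them to oxygen. Complexes I, III and IV pump protons as they do so, and complex V, the ATP synthase, uses the returning protons to make ATP. Most of their subunits are encoded in the nucleus, as are all the genes described here. In the mammalian embryo the maturing oocyte supplies the mitochondria, and ATP use rises as the blastocyst forms its cavity.

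All values are log2 ratios of insulin over control unless an intensity is named, so a value of 1 is a doubling. Each array had 43794 probes, of which 29384 were detected, and the median intensity of an array was 163 to 255 in Cy5 and 234 to 348 in Cy3. A gene is called higher or lower where its Benjamini-Hochberg adjusted p over all detected probes was under 0.05 in the limma fit. The median standard error of a log2 ratio was 0.114 for both doses together and 0.161 for a single dose, and the number of arrays limits this precision. The array INS0.1 replicate 1 stood apart. The 274 probes called higher from the INS10 arrays alone had a median log2 ratio of 0.05 on it, against 0.80 to 0.97 on the other 3 INS0.1 arrays. Results that rest on it are given with and without it. It was singled out by its low ratios for probes called higher, so leaving it out favours calls of higher genes. Blastocyst genes were detected, with all 15 trophectoderm markers, 10 of 11 inner cell mass markers and all 9 hypoblast markers on the platform.

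In blastocysts of both insulin doses together, 5 of the 78 genes were higher than in control blastocysts and none was lower. They were ATP5D of complex V at 2.32-fold, NDUFB7, NDUFA10 and NDUFS8 of complex I at 1.86-fold, 1.81-fold and 1.66-fold, and UQCRC1 of complex III at 1.48-fold. No gene of complex II or IV was called. The 5 make up 6.41% of the detected genes of the complexes, beside 2.12% of all 11718 detected named genes called higher and 0.196% called lower. Many of these named genes were dimmer than the genes of the complexes. With only probes detected in every reading kept, the 5 were among 76 genes of the complexes, beside 3.85% of 6910 named genes called higher. At an unadjusted p under 0.05 there were 8 genes of the complexes higher and 2 lower, beside 7.36% and 4.45% of all named genes. Leaving out INS0.1 replicate 1 left the 5 calls in place. In these whole-embryo extracts, a change in the number of cells of a type and a change in RNA per cell cannot be told apart.

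**Figure D1:**
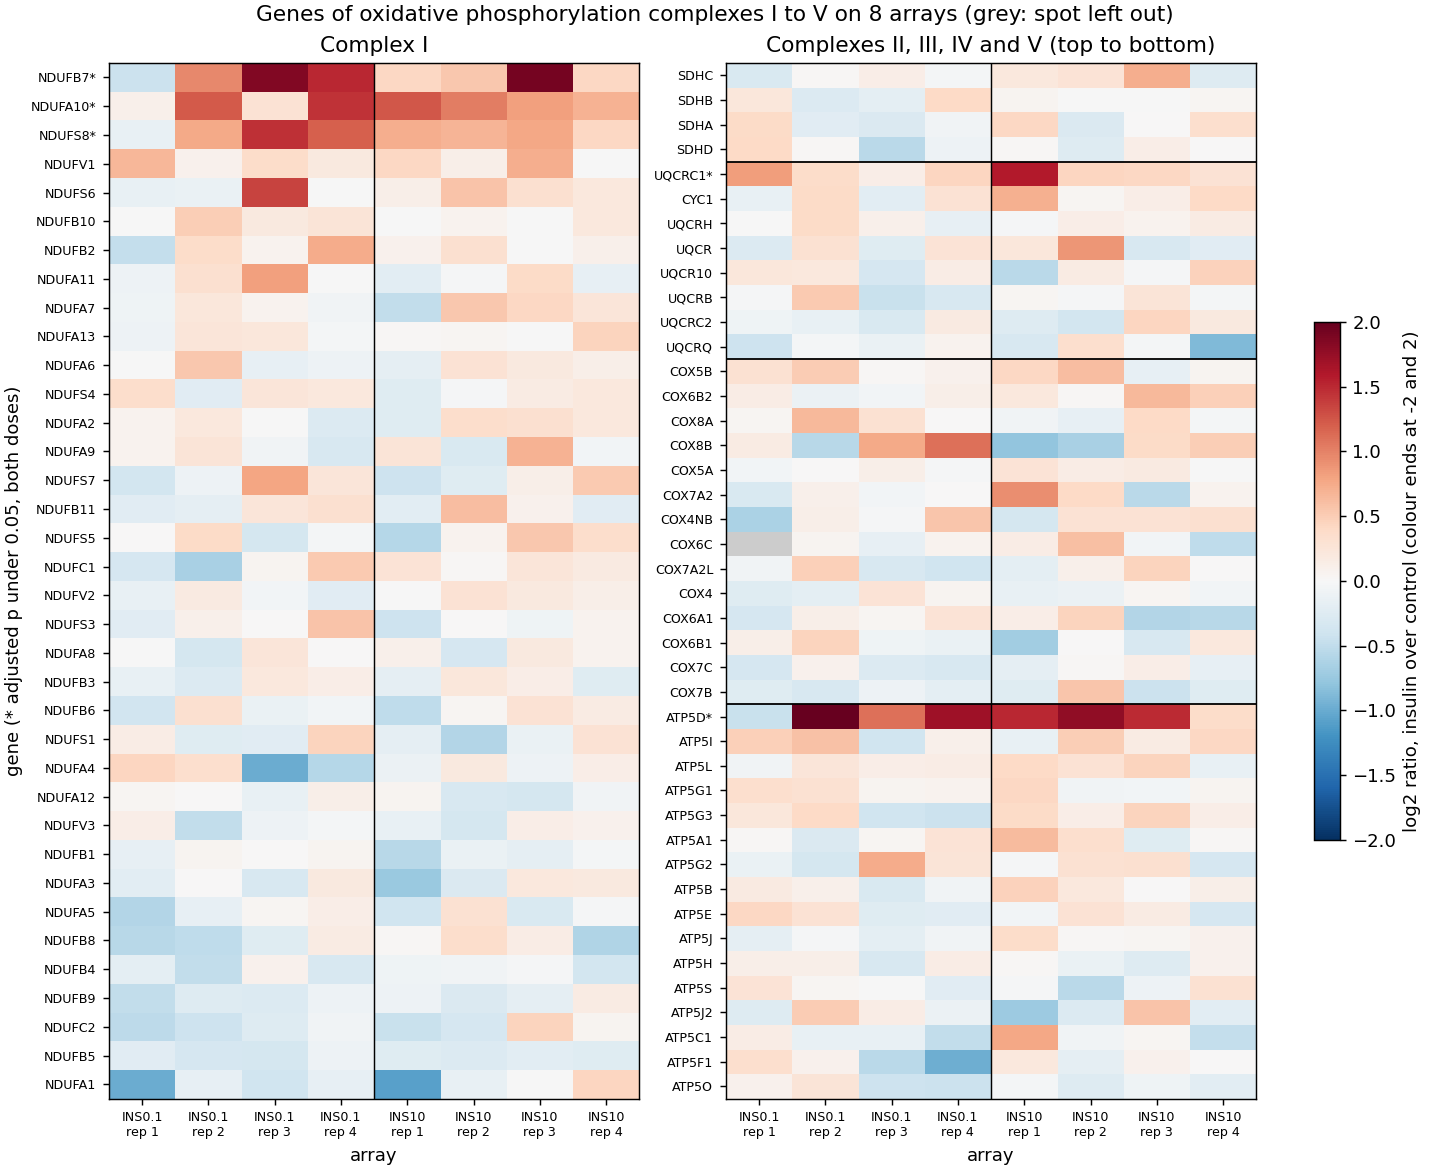
Log2 ratio of insulin over control for each of the 78 detected genes (rows, ordered within each complex by the fitted ratio) on each of the 8 arrays (columns, INS0.1 to the left of INS10), with colours ending 2 log2 units to either side of 0. Asterisks mark the 5 genes with an adjusted p under 0.05, whose rows are red on nearly every array, while most other rows change colour from array to array.

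ATP5D encodes the delta subunit of F1, part of the central stalk that turns inside the ATP synthase, and is now named ATP5F1D. Its log2 ratios were −0.45, 2.24, 1.10 and 1.69 in INS0.1 blastocysts and 1.51, 1.77, 1.50 and 0.37 in INS10 blastocysts. Its normalised intensity ran from 858 to 5786 with a median of 3931 in the 8 insulin readings, and from 963 to 2001 with a median of 1209 in the 8 control readings. The insulin readings were thus higher on 7 of 8 arrays, the exception being INS0.1 replicate 1, and the ranges overlapped. The fitted log2 ratio for both doses was 1.22 (SE 0.203, limma adjusted p = 0.00185), the third highest of the 11718 named genes. It averaged 1.14 ± 1.16 in INS0.1 and 1.29 ± 0.62 in INS10 blastocysts (SD, n = 4 each), and 1.27 and 1.16 on arrays with insulin in Cy5 and in Cy3. The platform held a single probe for it, so no second measurement exists here.

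None of the other F1 genes passed the test. The log2 ratio for both doses was 0.10 for ATP5A1 (alpha subunit), 0.09 for ATP5B (beta), −0.05 for ATP5C1 (gamma) and 0.04 for ATP5E (epsilon), and the smallest limma adjusted p among these 4 was 0.833. The alpha and beta subunits form the catalytic head, and gamma and epsilon complete the central stalk with delta.

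NDUFB7 encodes an accessory subunit of the membrane arm of complex I. Its log2 ratios were −0.42, 0.96, 1.85 and 1.51 in INS0.1 blastocysts and 0.42, 0.54, 1.92 and 0.41 in INS10 blastocysts. Its intensity was 1725 to 7313 (median 3397) in the insulin readings, against 1128 to 2665 (median 2180) in the control readings. It was higher on 7 of 8 arrays, again with INS0.1 replicate 1 the exception, and the 2 ranges overlapped. The fitted log2 ratio was 0.90 (SE 0.157, limma adjusted p = 0.00283). Its mean was 0.38 on the 4 arrays with insulin in Cy5 and 1.42 on the 4 with insulin in Cy3, though INS10 replicate 4, with insulin in Cy3, was at 0.41, below 3 of the 4 Cy5 values. Each replicate number had one orientation at both doses, so dye and replicate cannot be told apart.

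NDUFA10, an accessory subunit on the matrix side of complex I, was higher on all 8 arrays. Its log2 ratios were 0.10, 1.22, 0.30 and 1.44 in INS0.1 blastocysts and 1.24, 1.03, 0.82 and 0.70 in INS10 blastocysts. Its intensity was 539 to 1766 (median 1282) in the insulin readings, against 490 to 959 (median 647) in the control readings. The 4 INS10 ratios lay close together, with an SD of 0.24, whereas those of INS0.1 had an SD of 0.67. The fitted log2 ratio was 0.86 (SE 0.138, limma adjusted p = 0.00135). Of its other 2 probes, one was also called higher at 0.44 (limma adjusted p = 0.0388) with 8 of 8 arrays above 0, and the other, the dimmest, was at 0.16 (limma adjusted p = 0.711). The 3 probes therefore gave the same sign and different sizes.

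NDUFS8, a core subunit that carries iron-sulfur clusters on the path of the electrons to ubiquinone, had log2 ratios of −0.15, 0.76, 1.46 and 1.20 in INS0.1 blastocysts. They were 0.72, 0.69, 0.77 and 0.42 in INS10 blastocysts. Its intensity was 7772 to 18790 (median 13842) in the insulin readings, against 5477 to 10477 (median 7893) in the control readings. It was higher on 7 of 8 arrays, with INS0.1 replicate 1 the exception as for ATP5D and NDUFB7. The fitted log2 ratio was 0.73 (SE 0.130, limma adjusted p = 0.00327), and its second probe was called too, at 0.57 (limma adjusted p = 0.0316) with 8 of 8 arrays above 0.

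UQCRC1 encodes core protein 1, a large matrix-facing subunit of complex III. Its log2 ratios were 0.84, 0.36, 0.14 and 0.43 in INS0.1 blastocysts and 1.58, 0.43, 0.41 and 0.29 in INS10 blastocysts. Its intensity was 1234 to 2616 (median 2113) in the insulin readings, against 691 to 1990 (median 1530) in the control readings. All 8 arrays lay above 0, with replicate 1 the highest at each dose. The fitted log2 ratio was 0.56 (SE 0.124, limma adjusted p = 0.0184), and its second probe gave 0.18 (limma adjusted p = 0.619). This call was lost in 8 of the 22 alternative settings, among them the mean over both probes (limma adjusted p = 0.122) and the fit without INS10 replicate 1 (limma adjusted p = 0.114). Without INS0.1 replicate 3, INS0.1 replicate 4 or INS10 replicate 3 its limma adjusted p was 0.0526, 0.0676 or 0.0603.

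**Figure D2:**
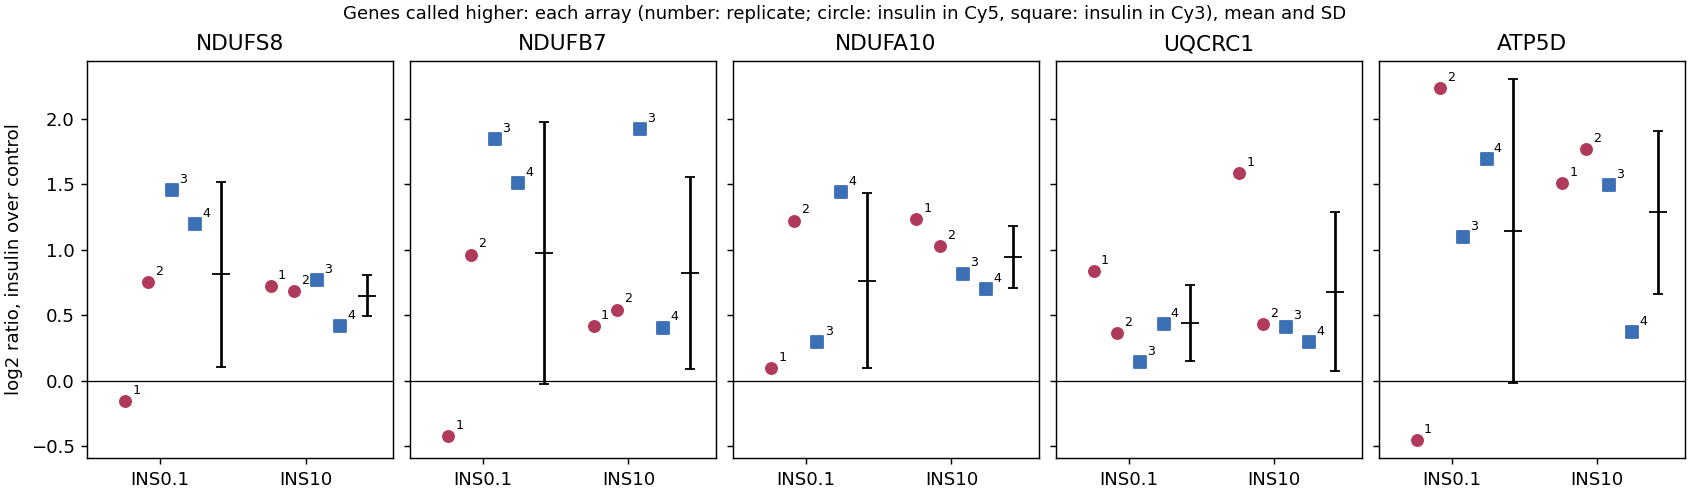
Log2 ratio of insulin over control on each array for the 5 genes called higher, with INS0.1 to the left of INS10. Numbers give the replicate, circles are arrays with insulin in Cy5, squares those with insulin in Cy3, and bars give the mean and SD of 4 arrays. INS0.1 replicate 1 lies below 0 for NDUFS8, NDUFB7 and ATP5D, and the other arrays lie above 0 for all 5 genes.

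Within complex I the calls fell on 1 of 6 detected core subunits and on 2 of 30 accessory subunits, with NDUFA4 counted among the 30 by its symbol. Over all named genes 2.12% were called higher, and the core share rests on NDUFS8 alone. Of the core subunits, NDUFV1, which binds the flavin that accepts electrons from NADH, followed NDUFS8 at 0.32 (limma adjusted p = 0.244) with 7 of 8 arrays above 0. The other core subunits were at 0.07 (NDUFS7), 0.04 (NDUFV2), 0.00 (NDUFS3) and −0.06 (NDUFS1). NDUFS6, a zinc-binding accessory subunit, was at 0.28 (limma adjusted p = 0.484), with 1.35 on INS0.1 replicate 3 and −0.15 to 0.57 on the other arrays. Median log2 ratios were 0.05 over the core subunits and 0.01 over the accessory ones, beside −0.01 over all named genes.

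The lowest ratios of all 5 complexes were also among the accessory subunits of complex I. NDUFA1, a small membrane subunit, was at −0.32 (limma adjusted p = 0.34), and its second probe at −0.38 (limma adjusted p = 0.203). It ranged from −1.09 to 0.42 over the arrays, and its 2 lowest values came from replicate 1 of each dose. NDUFB5 was at −0.25 (limma adjusted p = 0.356), with −0.23, −0.33, −0.34 and −0.10 in INS0.1 blastocysts and −0.24, −0.27, −0.21 and −0.25 in INS10 blastocysts. Its SD over the INS10 arrays was 0.02, and no array reached 0. NDUFC2, NDUFB9 and NDUFB4 were each at −0.19, and the second probe of NDUFB9 went the other way, at 0.14 with 6 of 8 arrays above 0. None of these passed the test.

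NDUFB5 was the only one of the 78 genes below 0 on all 8 arrays, and NDUFA10 and UQCRC1 were the only ones above 0 on all 8. Over all named genes, 1.66% were above 0 and 0.725% below 0 on 8 of 8 arrays.

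Complex II, succinate dehydrogenase, is shared with the TCA cycle. Its flavoprotein SDHA and its iron-sulfur subunit SDHB were both at 0.03, and its membrane anchors SDHC and SDHD were at 0.10 and −0.04. The arrays of these 4 genes ran from −0.54 to 0.72, and none passed the test (smallest limma adjusted p 0.849).

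In complex III the genes other than UQCRC1 lay between −0.18 and 0.20. CYC1, the haem-bearing cytochrome c1, was at 0.20 (limma adjusted p = 0.603), with 0.71 on INS10 replicate 1 and −0.21 to 0.40 elsewhere. UQCRC2, core protein 2 and the partner of UQCRC1, was at −0.05 (limma adjusted p = 0.935). The small subunits UQCRH and UQCR (now UQCR11) were at 0.08 each, UQCR10 was at 0.04, UQCRB was at −0.00, and UQCRQ was the lowest at −0.18.

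Complex IV had the narrowest range of the larger complexes, from −0.15 (COX7B) to 0.23 (COX5B, limma adjusted p = 0.429). COX5B was at 0.31, 0.51, 0.02 and 0.08 in INS0.1 blastocysts and 0.41, 0.62, −0.16 and 0.06 in INS10 blastocysts. Its 4 higher values were those with insulin in Cy5. COX6B2, known from testis, was at 0.18, COX8A at 0.14, and COX6A1, COX6B1 and COX7C were at −0.06, −0.06 and −0.13. COX6C had no value on INS0.1 replicate 1, where its spot was marked to be ignored, and its fitted ratio of 0.05 rests on 7 arrays.

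The muscle-type isoforms of complex IV were too dim to test or varied widely between arrays. COX6A2 was above the detection limit in 0 of 16 readings and COX7A1 in 1 of 16, so neither was tested. COX8B was detected in every reading, at −0.78 and −0.65 on INS10 replicates 1 and 2 and at 0.38 and 0.49 on replicates 3 and 4. In INS0.1 blastocysts it was at 0.16, −0.55, 0.76 and 1.11. Its mean was −0.46 on arrays with insulin in Cy5 and 0.68 with insulin in Cy3, around a fitted ratio of 0.11 (limma adjusted p = 0.798). As for NDUFB7, dye and replicate cannot be told apart. Apart from COX6A2 and COX7A1, the only gene of the set not detected was NDUFA4L2, in 3 of 16 readings.

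Complex V outside F1 gave small ratios that differed little by part. The 3 genes for the c subunit of the rotor ring, ATP5G1, ATP5G2 and ATP5G3, were at 0.14, 0.10 and 0.11. The 4 peripheral stalk genes had no value clearly above 0, with ATP5J at 0.00, ATP5H at −0.03, ATP5F1 at −0.12 and ATP5O at −0.14. The membrane subunits ATP5I and ATP5L had the highest ratios after ATP5D, at 0.21 and 0.18 (limma adjusted p = 0.603 and 0.632), and ATP5J2 was at −0.05. No gene of these classes passed the test.

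**Figure D3:**
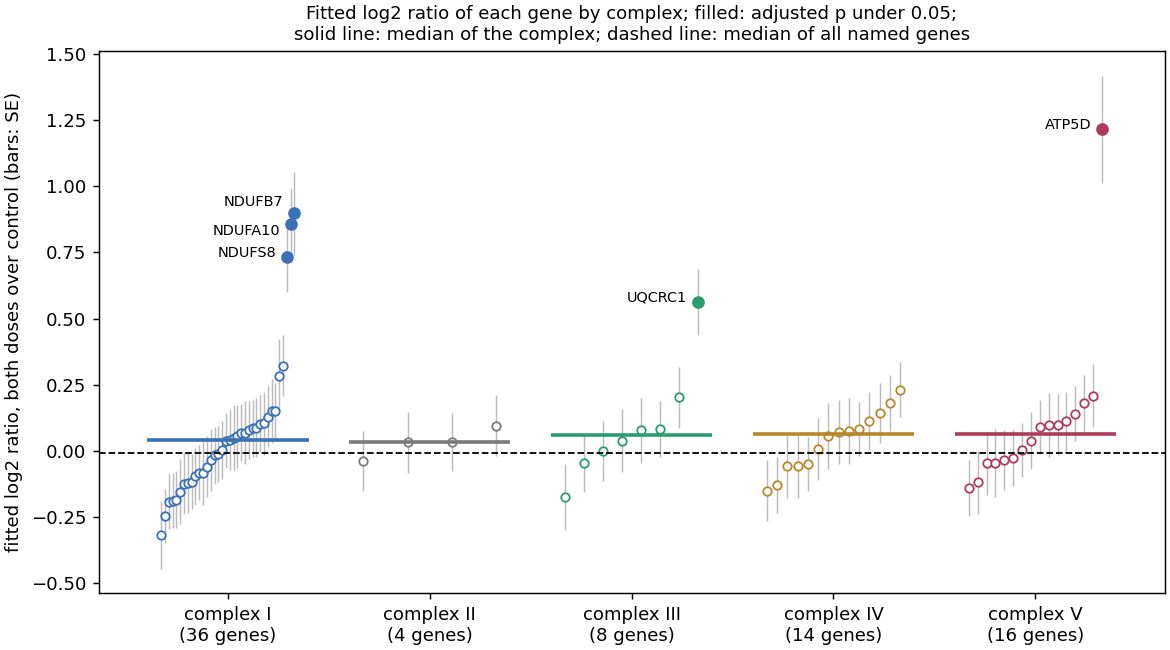
Fitted log2 ratio of both insulin doses over control for each gene, ordered within its complex, with its standard error; filled points have an adjusted p under 0.05. Solid lines give the median of each complex, 0.03 to 0.06, and the dashed line the median of all named genes, −0.01. The 5 filled points lie well above an otherwise continuous run of values between −0.32 and 0.32.

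Compared between the 5 complexes, the medians of the fitted log2 ratios were 0.04 for complex I, 0.03 for complex II and 0.06 each for complexes III, IV and V. Over all 78 genes the median was 0.04 and over all named genes −0.01. Of the 78 genes 47 (60.3%) were above 0, beside 47.9% of all named genes. The SD between genes was 0.245 over the 78, beside 0.181 over all named genes. Over the 73 genes that were not called the median was 0.04 and the SD 0.125, beside an SD of 0.149 over the 11446 named genes that were not called.

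No order of the complexes held across arrays. The median ran over the 8 arrays from −0.16 to 0.15 in complex I, from −0.24 to 0.30 in complex II, from −0.23 to 0.33 in complex III, from −0.11 to 0.13 in complex IV and from −0.17 to 0.29 in complex V. Of the 10 differences between pairs of complexes, the largest was that of complex III minus complex II, at 0.08 with an SD of 0.25 over the 8 arrays and 6 of 8 above 0. The most uniform in sign was complex IV minus complex III, at −0.07 with an SD of 0.13 and 1 of 8 above 0. Every one of the 10 mean differences was smaller than its SD over arrays.

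Averaged by dye orientation, the medians of complexes I and V differed in opposite ways. With insulin in Cy5 they averaged −0.06 in complex I and 0.17 in complex V, and with insulin in Cy3 they averaged 0.08 in complex I and −0.04 in complex V. In complex I the low Cy5 average came from replicate 1, at −0.15 in INS0.1 and −0.16 in INS10 blastocysts. Replicate 2, also with insulin in Cy5, was at 0.03 and 0.04. The part of dye or replicate in the array medians was not tested.

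**Figure D4:**
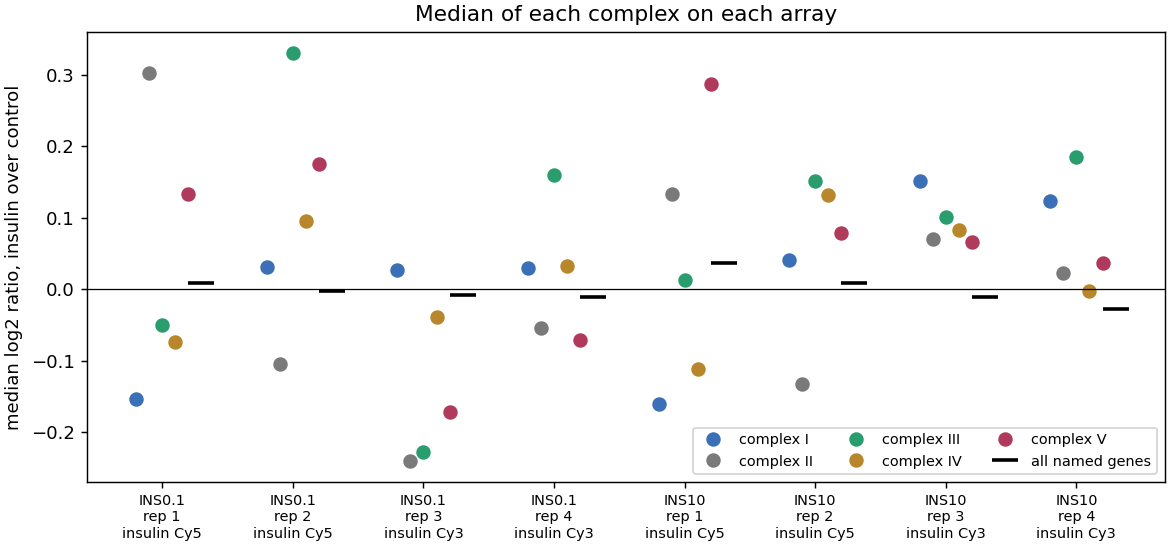
Median log2 ratio of insulin over control of each complex on each array, with the median of all named genes as a black bar. Complex V is highest on INS0.1 replicate 1 after complex II, and highest on INS10 replicate 1 at 0.29, but lies at −0.17 on INS0.1 replicate 3; no complex keeps its place across the 8 arrays.

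At the low dose alone, none of the 78 genes was called in INS0.1 blastocysts over control, beside 0.145% of all named genes called higher and 0% called lower in the limma fit. The log2 ratios of the 5 genes were 1.14 for ATP5D, 0.97 for NDUFB7, 0.81 for NDUFS8, 0.76 for NDUFA10 and 0.44 for UQCRC1, with limma adjusted p-values from 0.0914 to 0.507. At an unadjusted p under 0.05 there were 6 genes higher, these 5 and COX8B, and 2 lower, NDUFA1 and NDUFC2, beside 5.23% and 3.57% of all named genes. Without INS0.1 replicate 1, 4 genes were called higher, namely ATP5D, NDUFA10, NDUFB7 and NDUFS8, beside 1.11% of all named genes. The way this array was singled out favours such calls. NDUFB7 alone was called without INS10 replicate 4, beside 0.171% of all named genes called higher. NDUFS8 alone was called in the paired fit with slide-specific dye terms, beside 0.282%.

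At the high dose, ATP5D and NDUFA10 were higher in INS10 blastocysts than in control blastocysts. ATP5D was at 2.44-fold (limma adjusted p = 0.0477) and NDUFA10 at 1.93-fold (limma adjusted p = 0.0328). They are 2 of 78 genes, beside 0.58% of all named genes called higher and 0.00853% called lower. NDUFB7, UQCRC1 and NDUFS8 were at log2 ratios of 0.82, 0.68 and 0.65 (limma adjusted p = 0.146, 0.111 and 0.187). At an unadjusted p under 0.05, these 5 genes and COX6B2 were higher and none was lower, beside 5.16% and 2.72% of all named genes. Both calls were lost without INS10 replicate 1, 2 or 3, that of NDUFA10 also without INS10 replicate 4 and that of ATP5D without INS0.1 replicate 3. NDUFB7 was called as well without INS0.1 replicate 1 or without INS10 replicate 4, beside 0.93% and 0.674% of all named genes called higher. In the paired fit with slide-specific dye terms NDUFA10 alone was called, beside 0.777% of all named genes called higher.

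Set against each other, INS10 and INS0.1 blastocysts gave no called gene of the complexes and none among all named genes (0% higher and 0% lower in the limma fit). At an unadjusted p under 0.05, COX8B was lower at −0.51 and no gene of the set was higher, beside 1.5% and 1.35% of all named genes lower and higher. The difference of the doses was 0.14 for ATP5D, −0.15 for NDUFB7, 0.18 for NDUFA10, −0.16 for NDUFS8 and 0.24 for UQCRC1, each smaller than its standard error. All INS0.1 arrays were on one slide and all INS10 arrays on another, so slide and dose cannot be told apart.

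The spread over the 4 arrays of a dose was smaller for the genes of the complexes than for genes in general. The median SD was 0.266 in INS0.1 and 0.272 in INS10 blastocysts for the 78 genes, beside 0.332 and 0.317 for all named genes. The named genes were not matched to the 78 in intensity. Of the 78 genes, 76 were detected in all 16 readings, with UQCRH in 15 and COX6B2 in 14. No probe of the set reached saturation, the brightest spot being at 60940.

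Second probes bore on a part of the set. More than 1 detected probe was on the array for 31 genes, with 44 probes beside the brightest ones, and 47 genes had a single probe. Of the 44, 28 had the sign of the brightest probe, the median absolute difference was 0.10, and the largest was 0.69, for NDUFA10. Called higher among them were 2, those of NDUFA10 and NDUFS8, and none was called lower, beside 1.48% and 0.167% of all detected probes. ATP5D and NDUFB7 rest on 1 probe each.

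None of the genes next to the 5 called ones in the RefSeq gene order was called. Of the 20 genes within 2 places, 12 were measured and none overlapped its called neighbour (log2 ratios −0.18 to 0.26, smallest limma adjusted p 0.385). Over all named genes 2.12% were called higher and 0.196% lower. At such shares, 12 genes could easily hold no call. Beside ATP5D, STK11, MIDN and CIRBP were at −0.17, −0.13 and −0.09. Beside NDUFB7, TECR and DNAJB1 were at 0.05 and 0.15, and beside NDUFS8 the highest was UNC93B1 at 0.26. No neighbour of NDUFA10 was measured.

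Of the genes that work with the complexes none was called in both doses over control, beside 2.12% of all named genes called higher and 0.196% lower. Among 4 further subunits outside the symbol rule, NDUFAB1, the mitochondrial acyl carrier protein in complex I, was at 0.28 (limma adjusted p = 0.418). USMG5 (now ATP5MK), of the ATP synthase membrane part, was at −0.18 (limma adjusted p = 0.605) and below 0 on all 8 arrays, and ATPIF1, the ATP synthase inhibitor, and MP68 were each at 0.01. The 30 assembly factors, which build the complexes, had a median of −0.03, and 1 or 2 of them were called higher in 7 of the 22 alternative settings. COX19, a copper chaperone protein of complex IV assembly, was at 0.54 (limma adjusted p = 0.0516, and 0.0429 with replicate number as a block, which calls it), above 0 on all 8 arrays. ECSIT, a complex I assembly factor, was at 0.53 (limma adjusted p = 0.0659), and without INS0.1 replicate 1 it was called at 0.71 (limma adjusted p = 0.00178). It was also called with the filter for detection in every reading, array weights and both fits with slide-specific dye terms (limma adjusted p = 0.0241 to 0.0459). SDHAF1, an assembly factor of complex II, was at 0.29 (limma adjusted p = 0.258). LRPPRC, which stabilises mitochondrial mRNA, was at −0.35 (limma adjusted p = 0.244). The 23 electron and nucleotide carriers had a median of 0.02. Among them COQ9 and COQ10B, of ubiquinone synthesis and ubiquinone function, were at 0.29 and −0.24, and the ADP/ATP carriers SLC25A6 and SLC25A5 were at 0.31 and −0.20.

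The TCA cycle feeds NADH and succinate to complexes I and II. None of its 15 detected genes was called, their median was −0.06, and OGDH, a subunit of the 2-oxoglutarate dehydrogenase complex, was highest at 0.40 (limma adjusted p = 0.064) and above 0 on all 8 arrays. OGDH was called in 3 of the 22 alternative settings, with no background correction, the filter for detection in every reading and a dye effect for each slide (limma adjusted p = 0.035 to 0.0498). SUCLG1, a subunit of succinyl-CoA ligase, was at 0.24. PDHA1 of pyruvate dehydrogenase was at −0.30 and IDH3A at −0.26. The 11 nuclear regulators of mitochondrial genes had a median of −0.13, with 2 of 11 above 0 and none called. ESRRA, an orphan nuclear receptor that acts on respiratory genes, was at 0.46 (limma adjusted p = 0.101), and without INS0.1 replicate 1 it was called at 0.61 (limma adjusted p = 0.011). GABPA and GABPB1, the subunits of a factor that binds promoters of respiratory genes, were at −0.28 and −0.21, and POLRMT, the mitochondrial RNA polymerase, was at −0.21. These medians stand beside −0.01 over all named genes.

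**Figure D5:**
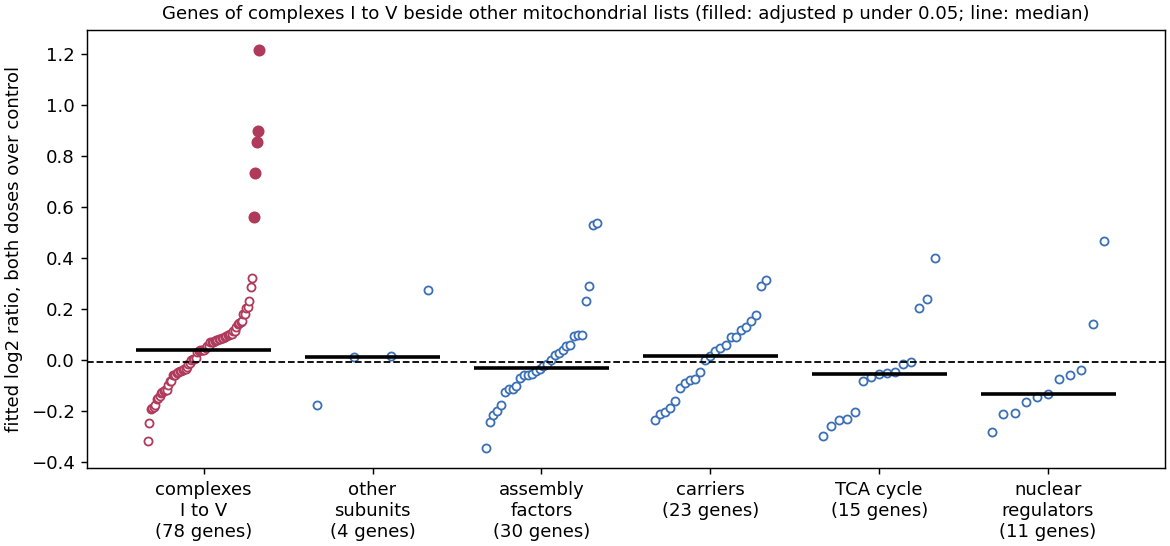
Fitted log2 ratio of both insulin doses over control for the 78 genes of complexes I to V, beside further subunits, assembly factors, carriers, TCA cycle genes and nuclear regulators; black lines are medians and filled points have an adjusted p under 0.05. Filled points appear in the first column only, and the medians run from −0.13 in the regulators to 0.04 in the complexes.

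Some markers of the cell types an extract could hold were called beside the 5 genes, in both doses over control. Beside the 2.12% of all named genes called higher, these were 2 of 15 trophectoderm markers, TEAD4 (0.69) and GATA2 (0.57), 1 of 10 inner cell mass markers, SOX2 (0.69), and 1 of 9 hypoblast markers, APOA1 (0.68). KLF4 of the inner cell mass list was at −0.32 and FOXA2 of the hypoblast list at 0.49, neither called, and FOXA2 was called at 0.64 without INS0.1 replicate 4. The call of GATA2 was lost without INS0.1 replicate 3 or 4 or INS10 replicate 1 or 2 (limma adjusted p = 0.0578 to 0.0879), that of TEAD4 with the mean of its probes (0.0592), and that of APOA1 with no dye term (0.244). The list medians were 0.01 for trophectoderm, with 9 of 15 markers above 0, 0.19 for inner cell mass, with 8 of 10, and 0.07 for hypoblast, with 5 of 9. The median of the inner cell mass list was above 0 on all 8 arrays, at 0.07 to 0.28. Summed intensities were 180441 to 212896 in insulin and 152065 to 214294 in control readings for trophectoderm, 18298 to 33437 and 18093 to 26580 for inner cell mass, and 18862 to 38265 and 20085 to 27439 for hypoblast. The unpaired insulin and control sums overlapped in each list. Of 8 detected cumulus and granulosa cell markers CYP11A1 (0.84) was called higher, and INHBA (0.44, limma adjusted p = 0.0617) was called without INS0.1 replicate 1 at 0.51 (limma adjusted p = 0.0297). The median of this list was −0.01, with 4 of 8 markers above 0 and 4 below. The sums ran from 4512 to 15419 in insulin and 5174 to 8918 in control readings, and INHA, FOXL2 and VCAN were detected in no reading. Of 8 detected oocyte markers none was called (DPPA3 at −0.23 and FIGLA at −0.14), with sums of 6814 to 11706 in insulin and 8250 to 14640 in control readings, and GDF9, ZP4, NLRP5 and ZAR1 were detected in no reading. The median of the oocyte list was −0.07, with 3 of 8 markers above 0. Of 8 detected sperm markers PRM1 (−0.64) was called lower and TNP1 was at −0.20, with sums of 1548 to 2719 in insulin and 1972 to 3020 in control readings, and PRM2 was detected in no reading. The median of the sperm list was −0.02, with 4 of 8 markers above 0 and 4 below. The part of cell makeup in the 5 calls was not tested.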

How the data were processed

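Gene expression in blastocysts was measured on 8 Agilent arrays of 2 colours. Per the labels' protocols, total RNA was amplified in 2 rounds and coupled to Cy3 or Cy5 at guanine bases, steps that can distort ratios. The deposited scanner tables hold median spot and background intensities of both channels, per the file headers. The authors' deposited table of log2 ratios has unstated steps. Its columns correlated at 0.985 to 0.997 with the insulin over control ratios computed here (medians −0.02 to 0.01), which gave base, centring and direction, while scaling between arrays stays unknown, and it served as an alternative.

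Median intensities were corrected with normexp (offset 50), normalised by loess within each array with control and ignored spots at weight 0, and turned to insulin over control by the labelled dyes. Detection required a signal over the mean of 153 negative controls by 2 SD, and probes detected in 4 or more of 16 readings were kept. The fit used limma 3.58.1 in R 4.3.3 (lmFit, eBayes) with 1 effect per dose and 1 shared dye effect, Benjamini-Hochberg adjustment over 29384 probes and a threshold of 0.05. On simulated data it recovered 39% of log2 changes of 0.5 and 94% of log2 changes of 1 for both doses over control. For INS0.1 and INS10 alone it recovered 4% and 3% of changes of 0.5, and 62% and 69% of changes of 1. The simulated arrays had independent noise and the same change on every array. Correlation between arrays, shared controls and an array that stands apart were not simulated, so recovery in these data may differ. The median over genes describes each complex, with no test.

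Nothing says that replicates came from separate collections, so p-values measure the spread between these samples. Array deviations of equal replicate numbers across doses correlated at 0.312, 0.221, 0.257 and 0.249 (0.223 to 0.261 without dye orientation), so the numbers were taken as pairing the samples, from the labels' numbers and this check. The main fit did not model this pairing and took the arrays as independent, and a replicate block was run as an alternative. Symbols are the platform's, some of them old. A RefSeq table of assembly ARS-UCD2.0 served for current names and gene order. No sequences were used here.

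Genes named are those called in any comparison, the 4 highest and 4 lowest of each complex, up to 4 of each mitochondrial list and 2 of each marker list by p. Others were named for their place in a complex with values in view. Members and lists were chosen with earlier results of these data known. Alternatives covered background correction, normalisation, dye terms, filters, probe choice, blocks, array weights and each array left out.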

Additional observations from a re-analysis of the deposited data

Results flagged for a closer look

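Among 229 groups of 4 arrays tested, over the 78 genes, 32 genes of the other lists and the medians of the complexes at each dose, 10 had an array far from the other 3, and chance gives about 1 in 20. NDUFB7 was at a log2 ratio of 1.92 on INS10 replicate 3, with the other INS10 arrays at 0.41 to 0.54. UQCRC1 was at 1.58 on INS10 replicate 1, with the others at 0.29 to 0.43. UQCR10 was at −0.34 on INS0.1 replicate 3, with the others at 0.14 to 0.23. NDUFS6 was at 1.35 on INS0.1 replicate 3, with the others at −0.15 to −0.01, and ATP5H at −0.33 on the same array, with the others at 0.11 to 0.15. NDUFA13 was at 0.44 on INS10 replicate 4, with the others at −0.01 to 0.04. On INS10 replicate 1, ATP5J was at 0.36, with the others at 0.03 to 0.08, and COX4NB at −0.36, with the others at 0.29 to 0.33. The median of complex I was −0.15 on INS0.1 replicate 1 and 0.03 on each of the others. The median of complex V was 0.29 on INS10 replicate 1, with the others at 0.04 to 0.08. ATP5J was above 0 on all 4 INS10 arrays and below 0 on all 4 INS0.1 arrays, but its difference of INS10 minus INS0.1, 0.25, did not pass the test (limma adjusted p = 1).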

How the results depend on the processing

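For both doses over control, 4 or 5 genes of the complexes were called higher in all 22 alternatives and 0 lower. The calls of NDUFA10, NDUFB7 and NDUFS8 held in 22 of 22, that of ATP5D in 21, being lost with the trend and robust options (limma adjusted p = 0.0698), and that of UQCRC1 in 14. The medians of the complexes stayed between −0.04 and 0.11, within their spread over arrays. For INS10 over control the count of 2 became 1 with no background correction, the trend and robust options, the authors' deposited values, no filter, or dye terms per slide. It was also 1 with dye terms per slide and the replicate block together, a fit chosen after seeing the data. It became 0 with offset 16, no dye term or the mean of a gene's probes, and 4 with the INS10 arrays fitted alone, and leaving out 1 array gave 0 to 3. ATP5D kept that call in 10 and NDUFA10 in 16 of 23 alternatives. For INS0.1 over control the count of 0 became 1 with dye terms per slide and the replicate block, and leaving out 1 array gave 0 to 4. The causes were not tested. The replicate block alone (consensus correlation −0.04) changed no call of a gene of the complexes, and with it COX19 and INHBA (limma adjusted p = 0.0496) passed the threshold, with no other change of call among the named genes. Over all named genes it moved the calls for both doses to 279 higher and 25 lower, against 249 and 23 without it. With dye terms per slide as well, the consensus correlation was 0.21. That fit called fewer named genes for both doses, 194 higher and 12 lower, and the same 5 genes of the complexes. No called value changed sign, and at most 4 of the uncalled genes of the complexes named by the rule did in any alternative. Over all named genes the number called higher ran over the alternatives from 146 to 319 for both doses (main 249), 0 to 130 for INS0.1 (17) and 0 to 162 for INS10 (68). COX6A2, COX7A1 and NDUFA4L2 were too dim to measure.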
